A study of Mus musculus with 29 samples.

Results

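The genes examined here encode the replicative DNA polymerases and their sliding clamp: *Pola1*, *Pola2*, *Prim1* and *Prim2* of polymerase alpha-primase, *Pold1*, *Pold2* and *Pold3* of polymerase delta, *Pole* and *Pole2* of polymerase epsilon, and *Pcna*. They were taken by symbol from the table of raw counts. All 10 symbols were found among its 24448 gene rows, and all 10 passed the filter on low counts in embryos, as did 11476 genes in all. RNA had been sequenced from 29 libraries of BDF1 mice by Smart-seq2, which gives full-length cDNA without strand or molecular identifiers. There were 8 embryos treated with hydroxyurea (HU, 10 uM), 12 single cumulus cells and 9 control embryos cultured without HU. Every embryo of both groups was made by nuclear transfer: an oocyte stripped of its own nucleus received a cumulus cell nucleus and was activated for 6 h with 10 mM strontium, CB (not spelled out in the labels) and EGTA. Embryos were assigned to HU or control medium at random, HU was withdrawn at 24 h, and single embryos were lysed as 2-cell embryos at 28 h after activation. Each embryo thus holds oocyte cytoplasm together with the genome of a somatic cell. The cumulus cells carry no treatment label and stand for the donor cell type. The labels name no animal, day or culture, so p-values measure only the spread between these embryos.

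Replication starts when polymerase alpha-primase lays down a short RNA-DNA primer; *Prim1* encodes the primase that makes the RNA, *Prim2* its large partner, *Pola1* the DNA polymerase and *Pola2* its regulatory subunit. Polymerase epsilon then copies the leading strand and polymerase delta the lagging strand, and delta is held on DNA by the ring of PCNA. HU inhibits ribonucleotide reductase and so lowers the supply of deoxynucleotides on which these polymerases draw. In mouse embryos the first division is served largely by mRNA and protein stored in the oocyte, and major transcription of the embryonic genome begins at the 2-cell stage.

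*Pcna* was the 1 member whose rise with 2-cell transcripts passed adjustment over all embryos. *Pole2* had the smallest p of the members between HU and control, and *Pold3* was the most abundant member in embryos. Promoters of these 3 genes are shown because the results turn on them. Each runs from 250 bases before to 50 bases after the start of the gene, 5′ to 3′ on the minus strand (RefSeq, GRCm38.p6), and lies at chr2:132253131-132253430 for *Pcna*, chr12:69228141-69228440 for *Pole2* and chr7:100121453-100121752 for *Pold3*. Capitals mark matches on either strand to an E2F consensus (TTTCCCGC, TTTCGCGC, TTTGGCGC or TTTGCCGC), the site of factors that drive many S-phase genes, or to the CCAAT box.
Pcna: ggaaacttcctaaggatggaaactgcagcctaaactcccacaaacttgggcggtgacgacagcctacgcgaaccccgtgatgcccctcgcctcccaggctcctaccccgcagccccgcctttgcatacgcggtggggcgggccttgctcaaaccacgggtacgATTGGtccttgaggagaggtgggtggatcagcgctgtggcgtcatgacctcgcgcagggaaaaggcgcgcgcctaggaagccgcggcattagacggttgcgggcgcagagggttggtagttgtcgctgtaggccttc
Pole2: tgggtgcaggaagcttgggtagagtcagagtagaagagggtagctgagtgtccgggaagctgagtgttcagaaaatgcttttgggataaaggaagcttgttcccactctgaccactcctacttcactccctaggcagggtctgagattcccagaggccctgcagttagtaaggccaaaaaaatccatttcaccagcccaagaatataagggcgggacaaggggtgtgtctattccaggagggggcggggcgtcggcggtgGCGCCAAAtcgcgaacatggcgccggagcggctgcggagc
Pold3: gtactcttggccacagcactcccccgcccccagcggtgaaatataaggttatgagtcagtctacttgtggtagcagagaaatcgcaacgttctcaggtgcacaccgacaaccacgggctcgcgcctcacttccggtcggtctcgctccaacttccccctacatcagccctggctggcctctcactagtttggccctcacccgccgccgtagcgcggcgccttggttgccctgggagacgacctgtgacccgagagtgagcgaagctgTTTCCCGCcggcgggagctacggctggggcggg
The table held a window for 8 of the 10 members, with 2 windows for *Pold2*; *Pole* and *Prim2* had no entry. An E2F match stood in the windows of *Pola1*, *Pold1*, *Pold3* and *Pole2*, and in 2.26% of all 32851 windows in the table. A CCAAT box stood in those of *Pola1*, *Prim1*, *Pold2* and *Pcna*, and in 37.4% of all windows. Counted from the RefSeq start used for the windows, the *Pole2* match begins at base 11 and the *Pold3* match at base 18. The box of *Pcna* begins 87 bases before its RefSeq start. The genes themselves lie at chr2:132249162-132253314 (*Pcna*), chr12:69201773-69228195 (*Pole2*) and chr7:100082111-100121565 (*Pold3*) in GENCODE M21 on GRCm38, all protein coding. On the minus strand the start is the higher coordinate. These GENCODE starts lie upstream of the RefSeq starts, so the offsets above do not hold for them. Within the GENCODE bounds the box of *Pcna* lies inside the gene. The other members are on chromosomes 1 (*Prim2*), 5 (*Pole*), 7 (*Pold1*), 10 (*Prim1*), 11 (*Pold2*), 19 (*Pola2*) and X (*Pola1*). These are matches of letters only.

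Libraries held 2442541 to 3757492 gene counts in HU embryos, 317195 to 4051494 in cumulus cells and 1801261 to 3472116 in control embryos. The row of the 45S pre-rRNA, Rn45s, took 15.2% to 29.0% of gene counts in HU embryos, 49.3% to 86.6% in cumulus cells and 16.2% to 32.5% in control embryos. Of 24 cumulus and granulosa markers, 23 had a count in some cumulus cell and only *Cyp19a1* had none. Detection does not set the cells apart, since 21 of the 24 had a count in some HU embryo and 23 in some control embryo. Summed levels per cell were 453 to 14416 CPM (counts scaled to equal library totals). They were 186 to 321 CPM in HU embryos and 168 to 329 CPM in control embryos. *Akap12*, *Kitl*, *Amhr2* and *Cyp19a1* were lower in the summed cells than in control embryos, and every other marker of the list was higher. *Akap12* was at 5.61 against 94.6 CPM, *Kitl* at 1.29 against 18.2 CPM and *Amhr2* at 14.7 against 28.3 CPM. Of 12 oocyte markers, 9 had no count in any cumulus cell, and *Bmp15* (3 counts), *Nlrp5* (2) and *Mos* (61) had counts only in cell 2. The embryos carried all 12. Cell 10 stands apart from the other cumulus cells, with the lowest gene count and the highest share of ERCC spike-in counts (73.5%), and cell 2 with the highest share of pre-rRNA (86.6%). Cell 2 also had the lowest summed cumulus and granulosa markers (453 CPM) and counts for 8 of 10 immune cell markers (174 CPM summed).

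Levels of different genes were compared in the deposited FPKM, which divides by gene length. The accessory subunit gene *Pold3*, whose protein tethers polymerase delta to PCNA, stood first in both kinds of embryo. It was at 58.8, 107 and 145 FPKM (lowest, median, highest) in HU embryos and at 86.0, 132 and 190 FPKM in control embryos. *Pcna* was second, at 41.9, 79.2 and 177 FPKM in HU embryos and 42.7, 69.9 and 166 FPKM in control embryos, and *Prim1* came next, at 33.1, 44.4 and 67.6 FPKM in HU embryos and 11.1, 39.9 and 80.3 FPKM in control embryos. These ranges overlap, although *Pold3* exceeded *Pcna* in 5 of 8 HU and 8 of 9 control embryos, and *Pcna* exceeded *Prim1* in 7 of 8 HU and 8 of 9 control embryos. Each library is a single embryo, so fewer cells and less RNA per cell cannot be told apart.

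The large catalytic genes *Pola1*, *Pole* and *Pold1* stood low in the order. By mean FPKM it went on with *Pola2* (23.7 ± 5.87 FPKM in HU embryos, 20.5 ± 7.51 FPKM in controls; SD, n = 8 and 9), *Pole2* (22.6 ± 8.01 and 14.2 ± 6.32 FPKM), *Prim2* (13.7 ± 7.01 and 10.8 ± 7.74 FPKM) and *Pola1* (11.3 ± 3.29 and 13.7 ± 1.66 FPKM), HU embryos first in each pair. Below them came *Pold2* (9.08 ± 3.98 and 10.6 ± 2.91 FPKM), *Pole* (7.04 ± 3.30 and 4.68 ± 2.37 FPKM) and *Pold1* (4.70 ± 2.41 and 7.99 ± 8.89 FPKM). In control embryos *Pola1* ranked above *Prim2* and *Pold1* above *Pole*. Every gene's range overlapped that of its neighbour in the order, in both groups.

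Subunits of 1 complex were far from equal per length. The FPKM of *Pold3* was above that of *Pold1*, the catalytic subunit gene, in all 17 embryos, by 14.5 to 132 times in HU embryos (median 21.8) and 5.28 to 124 times in control embryos (median 30.4). It was 12.8 times that of *Pold2* at the median in both groups. Within polymerase epsilon, the accessory gene *Pole2* exceeded *Pole* in all 17 embryos, with median ratios of 3.19 in HU and 2.94 in control embryos. *Prim1* exceeded *Prim2* in all 17 as well (median ratios 3.61 in HU and 4.05 in control embryos). *Pola2* exceeded *Pola1* in 8 of 8 HU and 7 of 9 control embryos.

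**Figure D1:**
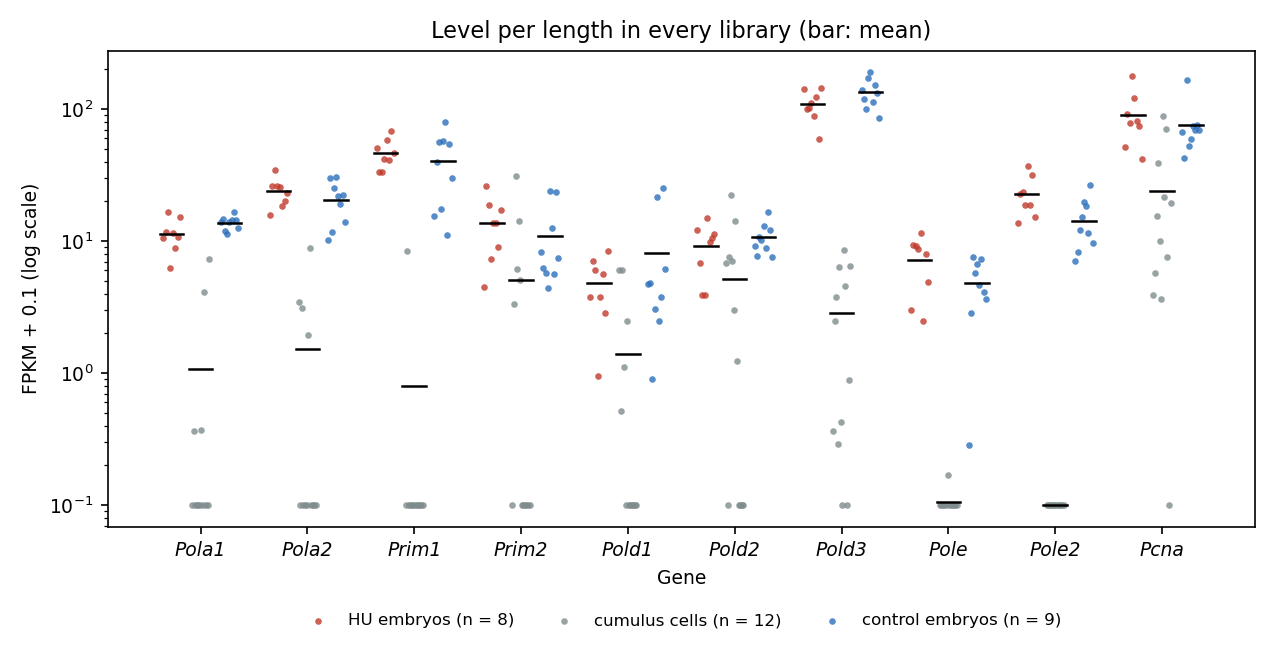
Deposited FPKM of each gene on a log axis, with 0.1 added so that zeros can be drawn, in HU embryos, cumulus cells and control embryos; each point is 1 library and each bar a mean. *Pold3* and *Pcna* are the highest genes in both kinds of embryo, and most cumulus cells lie at the bottom of the axis for every gene except *Pcna*, *Pold3* and *Pold2*.

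Embryos given HU were then set against controls, to see whether these transcripts differ after a drug that limits the substrate of their products. Values here are CPM scaled by TMM factors, and differences are log2 fold changes of HU over control from the edgeR quasi-likelihood test across all 11476 genes. For polymerase epsilon, *Pole2* was at 23.9, 35.9 and 62.3 CPM (lowest, median, highest) in HU embryos and 12.6, 21.0 and 40.0 CPM in control embryos. All 8 HU embryos lay above the control median, yet the groups overlapped. Its log2 fold change was 0.73 ± 0.28 (SE; 95% interval 0.15 to 1.31), with an unadjusted p of 0.0166 and an adjusted p of 0.829 in edgeR. *Pole*, its catalytic partner, was at 18.3, 63.5 and 77.1 CPM in HU embryos and 1.40, 34.2 and 54.5 CPM in control embryos, a difference of 0.63 ± 0.41 (SE; interval -0.23 to 1.49). Of the HU embryos, 5 exceeded every control for *Pole* and 3 fell among the controls; control embryo 1 had 4 counts. Reads of *Pole2* and *Pole* may include those of overlapping genes (the protein-coding Gm49384 and antisense Gm47545 for *Pole2*, antisense Gm15792 for *Pole*, in GENCODE M21).

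For polymerase delta, *Pold3* was at 205, 328 and 445 CPM in HU embryos and 308, 355 and 529 CPM in control embryos. The difference was -0.26 ± 0.17 (SE; interval -0.61 to 0.09); the control median was exceeded by 4 of 8 HU embryos. *Pold1* was at 3.12, 16.3 and 26.5 CPM in HU embryos and 2.84, 15.7 and 76.6 CPM in control embryos (-0.71 ± 0.52, SE). Its medians were close, and the 2 highest values were control embryos 8 and 5, at 76.6 and 68.9 CPM; without control embryo 8 the log2 fold change was -0.31. *Pold2*, the second accessory gene, averaged 14.9 ± 6.35 CPM in HU and 16.8 ± 3.60 CPM in control embryos (SD; -0.18 ± 0.32, SE, and 0.01 with scaling by ERCC spike-in RNA).

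For polymerase alpha-primase, *Pola1* was at 35.7, 59.1 and 85.7 CPM in HU embryos and 56.6, 77.0 and 82.2 CPM in control embryos. Only 1 of 8 HU embryos exceeded the control median (-0.26 ± 0.18, SE; interval -0.64 to 0.12). The other subunits had fold changes above 0 that did not pass: *Pola2* averaged 68.9 ± 15.04 CPM in HU and 58.0 ± 18.9 CPM in control embryos (SD; 0.25 ± 0.22, SE), *Prim1* 73.6 ± 22.6 and 61.6 ± 36.3 CPM (0.26 ± 0.33), and *Prim2* 27.1 ± 12.9 and 20.9 ± 13.5 CPM (0.37 ± 0.38). For each of these 3 genes 6 of 8 HU embryos lay above the control median. *Pcna* was at 49.5, 109 and 240 CPM in HU embryos and 52.7, 84.4 and 214 CPM in control embryos (0.28 ± 0.29, SE); again 6 of 8 HU embryos exceeded the control median. Its highest values came from HU embryo 4 and control embryo 3. Without HU embryo 4 the log2 fold change of *Pcna* was 0.04, and without control embryo 3 it was 0.50.

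In the edgeR test 0 of 10 members passed an adjusted p of 0.05, as did 0% of all genes. At an unadjusted p of 0.05 there was 1 of 10 (*Pole2*), beside 5.85% of all genes (3.81% higher and 2.04% lower), and DESeq2 and limma-voom also called 0 members. Of the 10, 6 had a fold change above 0, beside 53.6% of all genes, and for 0 of 10 were the groups apart, beside 0.0174%. The median log2 fold change was 0.25 over the members and 0.04 over all genes tested. With ERCC scaling the median of all genes moved to 0.19, 629 genes were higher and 27 lower at an unadjusted p of 0.05, against 437 and 234 with TMM, and 7 of 10 members lay above 0. The unadjusted p of *Pole2* was 0.143 with the cumulus cells also in the edgeR fit, 0.0535 without HU embryo 7 and 0.0579 with a score of genome activation transcripts (the 2-cell score) as a covariate. The intervals are wide, that of *Pold1* running from -1.79 to 0.37.

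**Figure D2:**
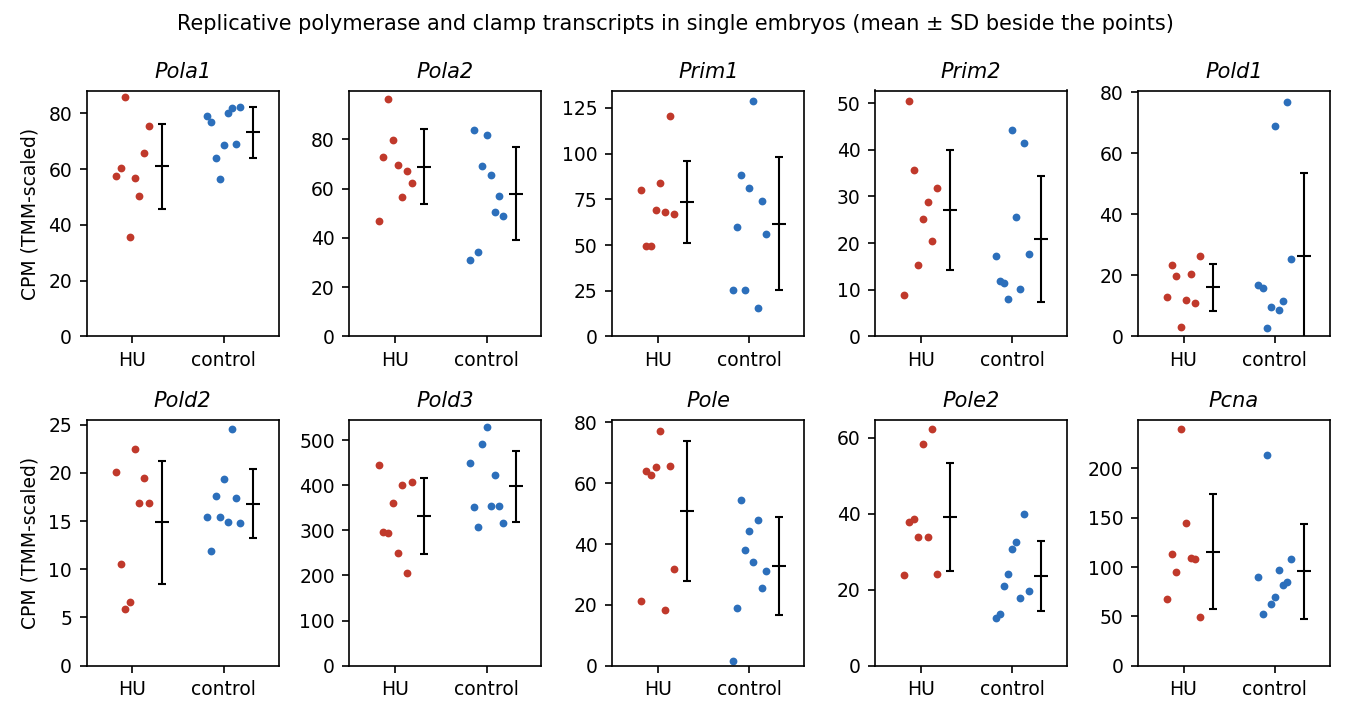
TMM-scaled CPM of each gene in 8 HU embryos (left) and 9 control embryos (right); points are single embryos, with mean and SD beside them. The groups overlap for all 10 genes; *Pole2* lies higher in HU embryos, and control embryos 5 and 8 stand high for *Pold1*.

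**Figure D3:**
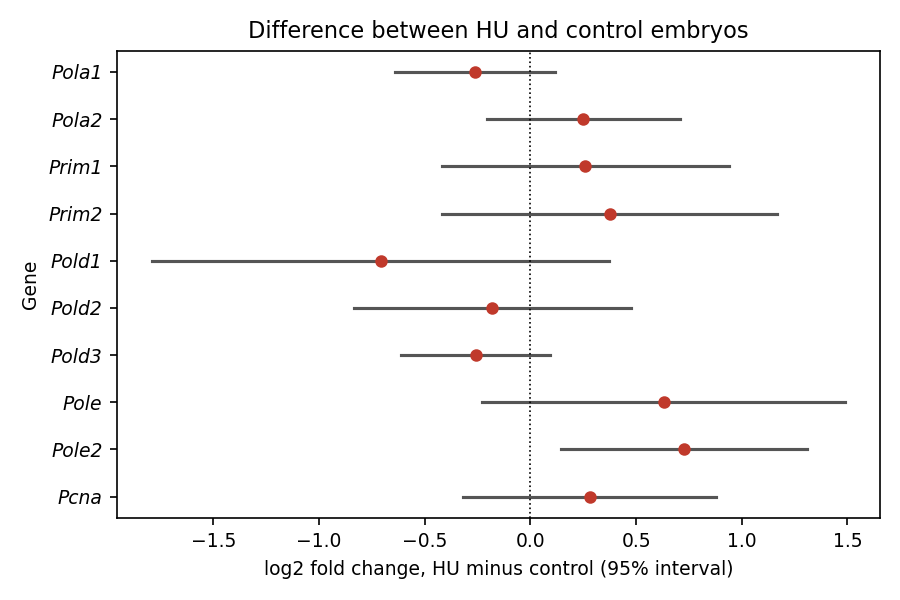
Log2 fold change of HU over control embryos with its 95% interval from edgeR, by gene. The interval of *Pole2* (0.15 to 1.31) lies above 0 and those of the other 9 genes span it; 0 genes passed after adjustment.

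Other genes of the replication fork were read from 8 lists holding 60 genes, of which 55 were tested. In edgeR 0 rose and 0 fell after adjustment, beside 0% of all genes. At an unadjusted p of 0.05 in edgeR there was 1 higher and 1 lower of 55, beside 3.81% and 2.04% of all genes. Among the remaining subunits and partners, *Poldip2*, which binds polymerase delta and PCNA, averaged 16.3 ± 6.38 CPM in HU and 28.0 ± 12.8 CPM in control embryos (SD; log2 fold change -0.79), *Pole3* 72.1 ± 20.3 and 84.3 ± 31.1 CPM, and *Pole4*, its histone-fold partner in polymerase epsilon, 283 ± 51.6 and 270 ± 42.7 CPM. Among clamp loaders, which open the PCNA ring, *Chtf8* averaged 67.3 ± 53.7 CPM in HU and 31.9 ± 13.6 CPM in control embryos (1.08; unadjusted p 0.0205, adjusted p 0.829 in edgeR), *Rfc1* 139 ± 42.4 and 111 ± 23.4 CPM, and *Rfc5* 152 ± 31.7 and 161 ± 38.0 CPM.

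Of the Okazaki fragment genes, *Fen1*, the flap nuclease, averaged 62.8 ± 27.2 CPM in HU and 54.5 ± 31.6 CPM in control embryos (SD), *Dna2* 63.2 ± 49.2 and 54.9 ± 24.9 CPM, and *Rnaseh2b* 7.28 ± 6.86 and 3.21 ± 3.90 CPM. *Rpa2*, of the single-strand binding complex, averaged 212 ± 126 CPM in HU and 213 ± 93.0 CPM in control embryos, *Rpa1* 52.5 ± 15.2 and 53.1 ± 16.5 CPM, and *Rpa3* 32.6 ± 11.8 and 28.6 ± 5.44 CPM. Among replisome couplers, *Tipin*, of the fork protection complex, averaged 298 ± 90.8 CPM in HU and 230 ± 45.7 CPM in control embryos, and *Cdc45*, of the helicase, 205 ± 126 and 150 ± 62.8 CPM. Median log2 fold changes were -0.11 for the remaining subunits and partners, 0.32 for clamp loaders, 0.20 for Okazaki fragment genes, 0.00 for RPA and 0.09 for replisome couplers, beside 0.04 for all genes.

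Enzymes that modify PCNA or use it for damage bypass were also without a call. *Usp1*, which removes ubiquitin from PCNA, averaged 339 ± 81.3 CPM in HU and 314 ± 45.9 CPM in control embryos (SD), *Ube2a* 100.1 ± 43.7 and 120.1 ± 21.2 CPM, and *Ube2b* 83.9 ± 19.3 and 68.3 ± 13.3 CPM. For the translesion genes, *Mad2l2* averaged 97.7 ± 50.8 CPM in HU and 105 ± 33.5 CPM in control embryos, *Rev1* 19.5 ± 14.6 and 21.7 ± 7.76 CPM, and *Poli* 6.45 ± 5.38 and 5.50 ± 4.28 CPM. Among repair polymerases, *Polm* averaged 104 ± 19.8 CPM in HU and 94.8 ± 37.6 CPM in control embryos, *Polb* 62.8 ± 24.2 and 77.1 ± 16.3 CPM, and *Polq* 36.6 ± 14.3 and 47.6 ± 29.6 CPM. Median log2 fold changes were 0.13 for PCNA modifiers, 0.00 for translesion genes and -0.16 for repair and mitochondrial polymerases.

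Embryos of 1 group differed widely in some members and little in others, measured by the coefficient of variation (CV, SD over mean) of CPM. The CV of *Pola1* was 25% in HU embryos and 12.4% in control embryos. Of 3614 genes whose control mean lay within 2-fold of that of *Pola1*, 0.526% had a lower CV; in HU embryos the share was 13%. *Pold2* had CVs of 42.8% in HU and 21.4% in control embryos, the second below all but 1.62% of genes of like level. *Pold1* was at the other end, with 47.6% in HU and 104% in control embryos, the second above 98.3% of genes of like level. The CV of *Pcna* was 50.04% in HU and 49.9% in control embryos, above 79.2% and 88.7% of genes of like level. The CV expected from counting alone was 3.08% to 14.97% for these genes. The difference in CV between groups was not tested.

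Members did not move as a block from embryo to embryo. Over the 17 embryos, centred within groups, the 45 pairs of members had Spearman correlations of -0.57 to 0.70, with a median of 0.00, and 2 pairs above 0.5. The highest pair was *Prim2* with *Pold1*, both high in control embryos 5 and 8 (44.2 and 41.6 CPM for *Prim2*), and the lowest *Pold3* with *Pcna*. Among 8963 genes with a mean of at least 10 CPM, the gene most like *Pold3* was *Rnpep*, an aminopeptidase gene (Spearman 0.90, Pearson 0.85), that most like *Pcna* was *Dnajb9*, an endoplasmic reticulum co-chaperone gene (0.89 and 0.94), and that most like *Pole* was *Zwilch*, a kinetochore gene (0.89 and 0.82). These are descriptions over embryos whose genes share library and depth.

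Embryos also differed in how far they carried transcripts of genome activation. A 2-cell score was taken as the mean log2(CPM + 1) of 15 genes such as *Zfp352* and *Sp110*. These were the ones past the filter on low counts, out of 43 listed and 40 with a row of counts. No *Zscan4* gene was among the 15. The score ran from 2.95 to 6.84 in HU embryos (median 5.44) and from 3.58 to 6.98 in control embryos (median 4.06). In controls, 8 embryos lay between 3.58 and 4.42 and only control embryo 3 lay above. HU embryos were spread over both ends. A slope on this score was fitted for every gene, with treatment in the edgeR model.

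*Pcna* rose with the score. Its CPM was 49.5 to 109 in the 3 HU embryos with the lowest scores and 94.9 to 240 in the other 5, and among controls it was 52.7 to 108 in 8 embryos and 214 in control embryo 3. The slope was 0.36 ± 0.08 log2 units per unit of score (SE; interval 0.20 to 0.52, adjusted p 0.00528 in edgeR). Within HU embryos alone it was 0.28 and within controls alone 0.46, neither past the threshold after adjustment (0.120 and 0.0690 in edgeR). The call rests on embryos at the top of the score: without control embryo 3 the slope was 0.30 (adjusted p 0.0878 in edgeR), and without both control embryo 3 and HU embryo 4 it was 0.19 (adjusted p 0.349).

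*Pole* had a slope of 0.41 ± 0.15 (SE), with 18.3 to 31.8 CPM in the 3 HU embryos of lowest score and 62.8 to 77.1 CPM in the 4 of highest; the slope did not pass (adjusted p 0.0964 in edgeR). It did pass in HU embryos alone (0.46, adjusted p 0.0462 in edgeR) and without control embryo 1, whose *Pole* was at 1.40 CPM (0.40, adjusted p 0.0149). *Pold3* and *Pold1* had slopes below 0 that did not pass, at -0.16 ± 0.06 and -0.57 ± 0.23 (SE; adjusted p 0.0998 and 0.123 in edgeR); *Pold3* passed without HU embryo 4 (-0.21, adjusted p 0.0377). In the 2 embryos with the highest scores, HU embryo 4 and control embryo 3, *Pold1* had its lowest values of each group, 3.12 and 2.84 CPM. The other 6 members had slopes between -0.12 (*Prim2*) and 0.14 (*Pole2*), with adjusted p of 0.509 to 0.887 in edgeR.

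Of the 10 members 1 was called higher with the score, beside 6.85% of the 11461 genes tested outside the score, and 0 lower, beside 2.02%. At an unadjusted p of 0.05 there were 4 of 10, beside 23.9%: *Pcna* and *Pole* higher, beside 14.1%, and *Pold3* and *Pold1* lower, beside 9.79%. Slopes above 0 numbered 5 of 10, beside 46.7%. The median slope was 0.00 over the members and -0.02 over all genes. In the 8 lists of other fork genes 6 of 55 rose with the score and 0 fell in edgeR: *Poldip3*, a partner of polymerase delta (0.36), *Dna2* (0.50) and *Fen1* (0.38), the translesion polymerase gene *Polh* (0.38), *Polq* (0.39) and *Cdc45* (0.44). Clamp loaders and RPA had none; their smallest p came from *Rfc4* (0.40), *Chtf8* (0.41), *Rpa2* (0.34) and *Rpa1* (-0.19), with adjusted p of 0.0615, 0.101, 0.0565 and 0.202 in edgeR. *Rad18* (0.24) and *Hltf* (-0.28), which ubiquitinate PCNA, did not pass either. Embryos with a high score had fewer detected genes (Spearman -0.60 over 17 embryos) and lower summed oocyte markers (-0.59); the part of either in the slopes was not tested. Gene counts had a Spearman correlation of -0.15 with the score; with log2 library size in the edgeR model the *Pcna* slope was 0.42 (adjusted p 0.00734) and that of *Pole* 0.39 (adjusted p 0.191).

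**Figure D4:**
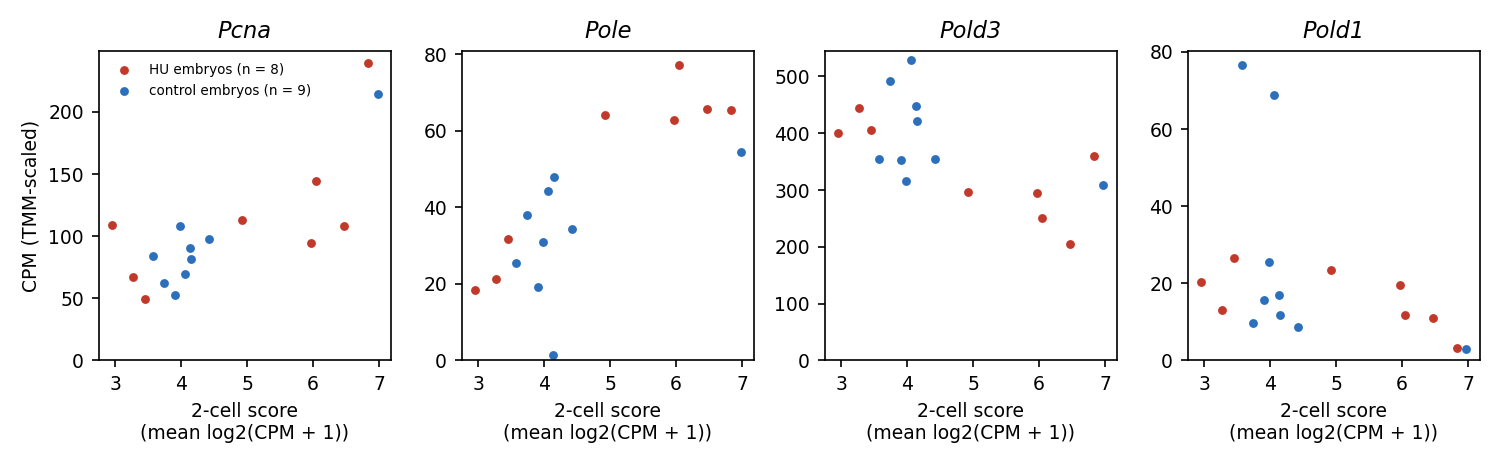
TMM-scaled CPM of *Pcna*, *Pole*, *Pold3* and *Pold1* against the 2-cell score, 1 point per embryo, HU and control embryos in separate colours. *Pcna* is highest in the 2 embryos with the highest scores (240 and 214 CPM), *Pole* lies higher and *Pold3* lower at high scores, and *Pold1* is near 3 CPM in those 2 embryos.

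Cumulus cells show which of these transcripts were detected in single cells of the donor type, in poorer libraries. Detected genes numbered 4054 to 8629 per cumulus cell, 12887 to 15421 per HU embryo and 13875 to 15132 per control embryo. Gene counts per ERCC count had medians of 1.26, 17.7 and 15.6 in that order. How far this lowers the cumulus values was not tested. The labels give no source animals, so the 12 cells were summed as 1 sample, without a test, and intervals cover counting error of reads only. Without molecular identifiers, copies of 1 molecule count as separate reads. Neither that nor the spread between cells is in the intervals, which are thus too narrow. *Pcna* was the most abundant member in the cells and had counts in 11 of 12 of them, at 3 to 235 counts. Summed, it was at 31.5 CPM in cumulus cells (95% Poisson interval 29.3 to 33.9), against 113 CPM in HU and 94.6 CPM in control embryos. *Pold3*, which led in embryos, was at 8.23 CPM in cumulus cells (interval 7.12 to 9.46) with counts in 10 of 12 cells, and 328 CPM in HU and 402 CPM in control embryos. It was thus 48.9-fold lower in cumulus cells than in control embryos, and *Pcna* 3.0-fold lower.

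*Prim1*, *Pole*, *Pole2*, *Pola1* and *Pola2* each had a lower CPM than *Pold3* in the summed cells. *Prim1* had 18 counts, for 0.748 CPM in cumulus cells against 71.5 CPM in HU and 61.6 CPM in control embryos. All 18 were in cell 2, the cell that also held every oocyte marker count and most of the immune markers. *Pole* had 2 counts, both in cell 6, and its level in control embryos was 401 times that in cumulus cells, with a counting interval of 111 to 3313. That fold rests on those 2 counts. With 1 CPM added to both sides, its log2 ratio of cumulus cells to control embryos was -4.99. Under 7 alternative settings, the amount added among them, that ratio ran from -7.51 to -2.92. The 401 times had nothing added, so this range does not give its spread. *Pole2* had 0 counts in 12 cells. A limit of 3 counts over the group, 0.125 CPM, lies 193-fold below control embryos. The upper end of its 95% Poisson interval (0.153 CPM) lies 157-fold below them, so 193 is not a firm lower bound. Both limits were taken with the pre-rRNA row kept in. *Pola1* (3.82 CPM in cumulus cells, counts in 4 cells, 62.0% of them in cell 9) and *Pola2* (5.28 CPM, counts in 4 cells) were 19.1-fold and 11.2-fold lower than in control embryos. A cell with no count may still hold the transcript.

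*Prim2* and *Pold2* came nearest to control embryo levels, at 1.89-fold and 1.97-fold lower, and *Pold1* was 4.51-fold lower. *Pold2* was at 8.65 CPM in cumulus cells (counts in 7 cells), 14.6 CPM in HU and 17.03 CPM in control embryos. *Prim2* was at 11.3 CPM in cumulus cells, 27.1 CPM in HU and 21.3 CPM in control embryos, with 59.6% of its cumulus counts in cell 3. *Pold1* was at 6.07 CPM in cumulus cells (5 cells), 16.1 CPM in HU and 27.4 CPM in control embryos. In all, 7 of 10 members were at least 4-fold lower in cumulus cells than in control embryos (1 CPM added), beside 40.2% of 11475 genes. None (0) were at least 4-fold higher, beside 4.42%. Members and these genes alike had passed a filter on embryo counts alone. Genes seen mainly in cumulus cells are thus left out, which favours lower values in the cells. *Pold1* lay close to that limit, and without cell 10 the lower members numbered 6. The median log2 ratio was -3.60 over the members and -1.45 over all genes past that filter.

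The pre-rRNA share lowers every other CPM in the cells. Without that row the median of all genes was -0.63 and that of the members -2.83, and 6 of 10 members were at least 4-fold lower, beside 30.8% of genes; 0 were at least 4-fold higher, beside 10.4%. *Pold2* and *Prim2* then stood at ratios of -0.04 and 0.02, *Pcna* at -0.66 and *Pold3* at -4.60. Of 20 markers of cycling cells, 15 had a count in some cumulus cell, and *Top2a*, *Ccna2*, *Birc5*, *Aurkb* and *Bub1* had none. *Mcm7* had counts in 9 cells (34.5 CPM summed, against 70.0 CPM in HU and 41.7 CPM in control embryos), *Mcm6* in 7 and *Tyms* in 5. With the pre-rRNA row kept in, the markers summed to 42.3 to 265 CPM per cell. The sums were 3149 to 7595 CPM in HU and 3323 to 5345 CPM in control embryos.

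**Figure D5:**
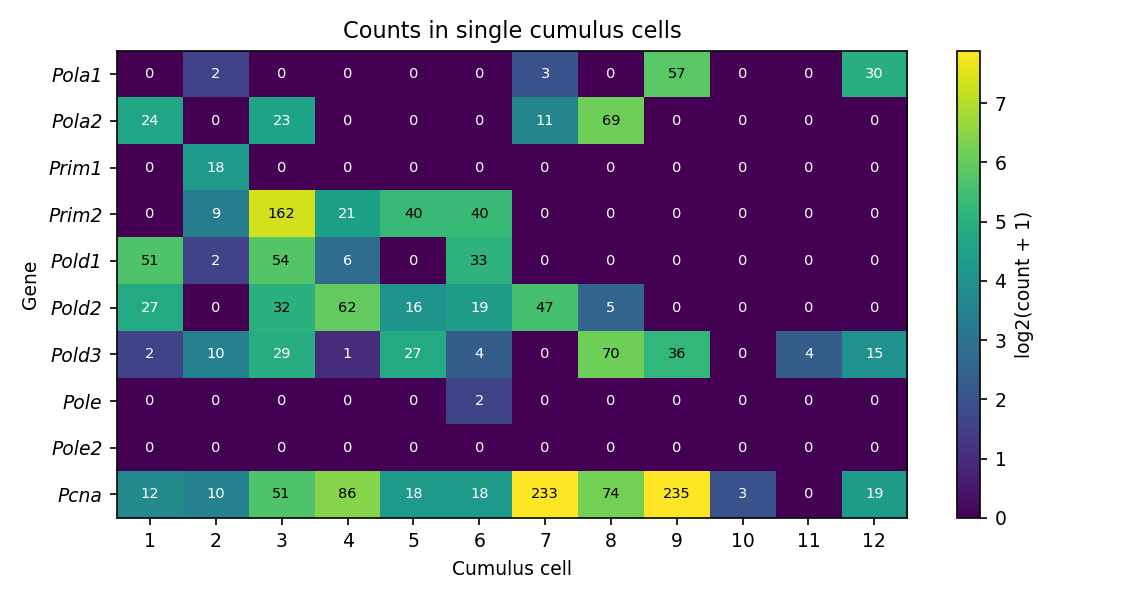
Counts of each gene in the 12 cumulus cells, with colour on a log2(count + 1) scale and the count printed in each square. *Pcna* has counts in 11 cells, *Prim1* and *Pole* in 1 each and *Pole2* in none.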

How the data were processed

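Whole-embryo and single-cell libraries were read from 2 tables. The authors deposited raw counts per gene (24540 rows, 92 of them ERCC spike-ins left out of library sizes and tests) and FPKM values per gene. The submitters' processing notes list mm10 as build and STAR 2.7.3a, FastQC and R 4.0.2 as tools. Which program counted reads, on what annotation and with what strand setting, is not given in the sources used here. For 18588 of 18588 genes checked, the deposited FPKM equalled count over library and 1 gene length (tolerance 0.001), so it adds no normalization. No column was left unmapped, and 0 pairs of libraries were identical.

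Embryos were compared by edgeR 4.0.16 (R 4.3.3; TMM, filterByExpr, quasi-likelihood F test, Benjamini-Hochberg over all genes, threshold 0.05), after the fits had been checked on simulated counts. SEs come from the F statistic. The slope used the same fit with the score and treatment. Alternatives used DESeq2 1.42.0 and limma 3.58.1. Summed cumulus counts carry exact Poisson intervals (95%).

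The members and lists were chosen with earlier results of these data known. All 10 members are named; of each pathway list, those that passed or, failing that, the 2 of smallest p and, for HU, the most abundant one; and the gene most like a member, for the 3 members with the highest likeness. Positions of overlapping genes come from GENCODE M21 (GRCm38, called mm10). Processed pseudogenes of Pcna are annotated on chromosomes 19 and X without rows of their own, so its counts could include theirs.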

Additional observations from a re-analysis of the deposited data

Results flagged for a closer look

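In the control embryos, the *Pcna* level of control embryo 3, 214 CPM, stood far from the other 8, the next highest being 108 CPM. The 2-cell score of the same embryo, 6.98, also stood far from the other controls, which reached 4.42. These are 2 flags in 22 groups of embryos examined, and chance flags about 1 in 20 groups.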

How the results depend on the processing

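For HU against control, edgeR called 0 genes, DESeq2 called 2 higher and 1 lower (none a member), and leaving out single embryos gave 0 to 1 higher (1 without HU embryo 8) and 0 to 0 lower. The replicate numbers of HU and control embryos share only a number (correlations of deviations -0.10 to 0.19 for numbers 1 to 8, and 1 of 8 HU embryos closest to its own number). With the replicate block over 8 pairs, 0 genes were called and *Pole2* was at 0.71 (edgeR adjusted p 0.923). In every alternative run 0 members were called, and member values kept their direction in 259 cases and lost it in 1, *Pold2* at 0.0099 with ERCC scaling. Leaving out 1 embryo, *Pole2* ranged from 0.58 to 0.85 and its unadjusted p reached 0.0535 without HU embryo 7. With the 2-cell score as a covariate, added after seeing the data, *Pole2* was at 0.59, *Pole* at 0.24 and *Pcna* at 0.06.

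For the 2-cell score, 785 genes were called higher and 231 lower. Counts were 230 and 46 with ERCC scaling, 59 and 1 in control embryos only, 447 and 88 in HU embryos only, and 221 and 56 without the 2 embryos farthest from the median score. With library size added, 134 were lower. Leaving out 1 embryo gave 399 to 872 higher and 105 to 288 lower, the lowest both without control embryo 3. Without HU embryo 8 there were 503 and 116, and without HU embryos 1, 5, 6 or 7 there were 130 to 145 lower. The *Pcna* slope was 0.33 with ERCC scaling (adjusted p 0.0508 in edgeR). Slopes near 0 changed sign: *Pola2* at -0.0093 with ERCC scaling and -0.28 in control embryos only, *Pold2* at 0.024 and *Pole2* at -0.097 in control embryos only, and *Pola1* at 0.082 and *Prim2* at 0.060 without the 2 farthest embryos. Leaving out 1 embryo, *Pola1* ranged from -0.072 to 0.029 (above 0 without HU embryo 4) and *Pola2* from -0.026 to 0.13 (below 0 without HU embryo 1 or 6). The cause of these changes was not tested.

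Between 6 and 7 members were at least 4-fold lower in cumulus cells under the 7 alternatives. Without the pre-rRNA row, *Prim2* turned to 0.016, the 1 log2 ratio that changed sign. Of the other member ratios, 50 shifted by less than the SD between control embryos and 19 by more. The ratio of *Pole2* ran from -7.91 to -2.54 and that of *Prim1* from -6.18 to -3.53. Ranks by median differed from those by mean for 0 members in HU embryos and 4 in control embryos. In cumulus cells they differed for 5, but every member other than *Pcna*, *Pold2* and *Pold3* had a median FPKM of 0. That count thus depends on how ties were ordered. Summed counts of 2 (*Pole*) and 0 (*Pole2*) limit the cumulus values.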
